A study of Arabidopsis thaliana with 2 samples.

Results

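Flowering-time and floral RNA regulators under ATAF1-HA peaks are 5 Arabidopsis thaliana genes: SUF4 (AT1G30970), COL2 (AT3G02380), HUB2 (AT1G55250), HUA1 (AT3G12680) and FCA (AT4G16280). They were chosen by the annotation of the authors' peaks: a peak of the list names each by locus or symbol, in its overlap column or in a hand-written note, on the gene's own chromosome. Each was named by 1 peak, so 5 of 439 peaks and 5 of the 289 nuclear protein-coding genes named in the overlap column are described here. That a peak lies on these genes was the reason for choosing them and is therefore not a result. The list names 1.05% of all 27444 nuclear protein-coding genes.

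The series mapped the chromatin sites of ATAF1, a stress-responsive NAC transcription factor, by anti-HA chromatin immunoprecipitation and sequencing. The tagged plants carried 35S:ATAF1-HA in the Col-0 ecotype and were set against untagged wild-type Col-0 plants. Both were rosettes of 5 weeks grown with 8 h of light per day at 21 °C, with 1 library per genotype. The 35S promoter drives strong expression in most tissues, so ATAF1-HA was not at its native level. The list gives reads once per peak and names no library for them. No difference between ATAF1-HA and Col-0 plants could therefore be tested, and total depth is unknown.

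Flowering of Arabidopsis is held back by FLC, a MADS-box repressor whose transcription is raised by the FRIGIDA complex and by histone H2B monoubiquitination. The autonomous pathway lowers FLC through RNA processing and chromatin, while the CONSTANS branch reads day length and activates FT, the mobile flowering signal. Flower identity depends on the MADS-box gene AGAMOUS, whose long intron must be processed correctly by RNA-binding proteins. Of the genes described, SUF4 and HUB2 act on the side that keeps FLC active, FCA acts against FLC, COL2 belongs to the CONSTANS-like family, and HUA1 acts on AGAMOUS RNA. Col-0 is known to carry an inactive FRIGIDA allele.

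Reads under the 5 peaks spanned a range of 138 to 301, with a median of 161 against a median of 215 over all 439 peaks (quartiles 141.5 and 281). SUF4 encodes a zinc finger protein of the FRIGIDA complex that binds the FLC promoter. Its peak lay on chromosome 1 at 11042507 to 11042522 and held 301 reads, 147 forward and 154 reverse. It ranked 92 by reads, with fewer reads in 78.6% of all peaks. COL2 encodes a B-box zinc finger protein close to CONSTANS. Its peak lay on chromosome 3 at 488492 to 488526 with 274 reads, 98 forward and 176 reverse, and ranked 121. These 2 peaks were above the median of the list, and the other 3 were below it.

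HUB2 encodes a RING-type ligase that works with HUB1 to attach ubiquitin to histone H2B. The HUB2 peak lay on chromosome 1 at 20607934 to 20607972 and held 161 reads, 66 forward and 95 reverse. HUA1, a CCCH-type zinc finger RNA-binding protein, had a peak on chromosome 3 at 4028728 to 4028775 with 149 reads, 57 forward and 92 reverse. FCA encodes an RNA-binding protein of the autonomous pathway that acts in 3' end processing of antisense RNA at FLC. Its peak lay on chromosome 4 at 9211590 to 9211634 with 138 reads, 100 forward and 38 reverse. Fewer reads were found in 31.2% of all peaks for HUB2, in 27.8% for HUA1 and in 18.7% for FCA. SUF4 thus had 2.18 times the reads of FCA, but these raw counts, scaled to neither peak length nor depth, do not compare occupancy.

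**Figure D1:**
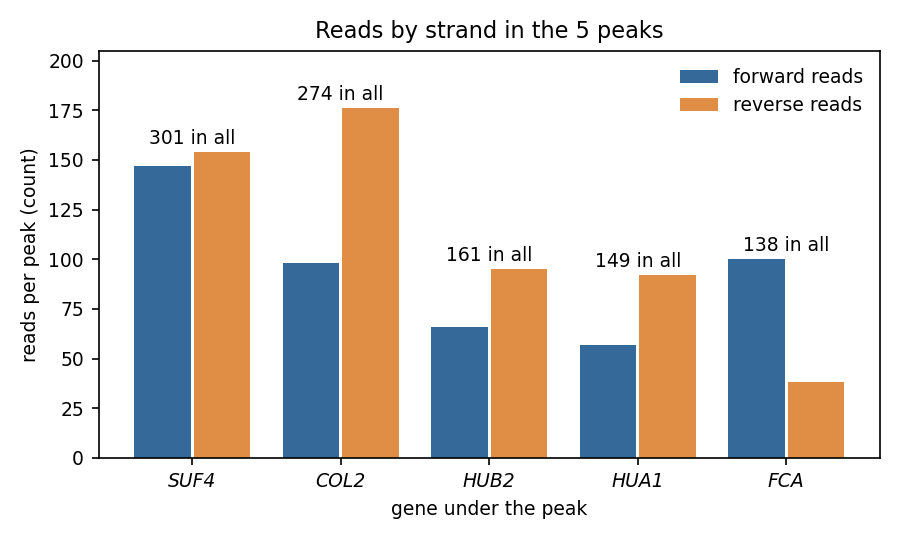
Reads per peak (count) on the forward strand (blue bars) and the reverse strand (orange bars) for the 5 peaks, with the total of each peak above its bars. SUF4 had nearly equal bars (147 and 154), COL2, HUB2 and HUA1 had more reverse reads, and FCA had 100 forward and 38 reverse reads.

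The peaks were short, as were most of the list. Lengths were 15 bp for SUF4, 34 bp for COL2, 38 bp for HUB2, 47 bp for HUA1 and 44 bp for FCA, against a median of 40 bp over all peaks (quartiles 27 and 58). The SUF4 peak thus lay below the lower quartile and the other 4 within the quartiles. Only 35 of the 439 peaks were shorter than that on SUF4. Per base of peak length SUF4 had 20.1 reads and COL2 8.06, while HUB2 had 4.24, HUA1 3.17 and FCA 3.14, against a median of 5.28 over all peaks. The order of the members by reads was the same on both scales. The list does not say in what window reads were counted, while peaks of 0 bp and 1 bp held, for example, 267 and 883 reads. Reads per base of listed length are therefore not a density of reads. For reads per base, peaks of 0 bp were taken as 1 bp.

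**Figure D2:**
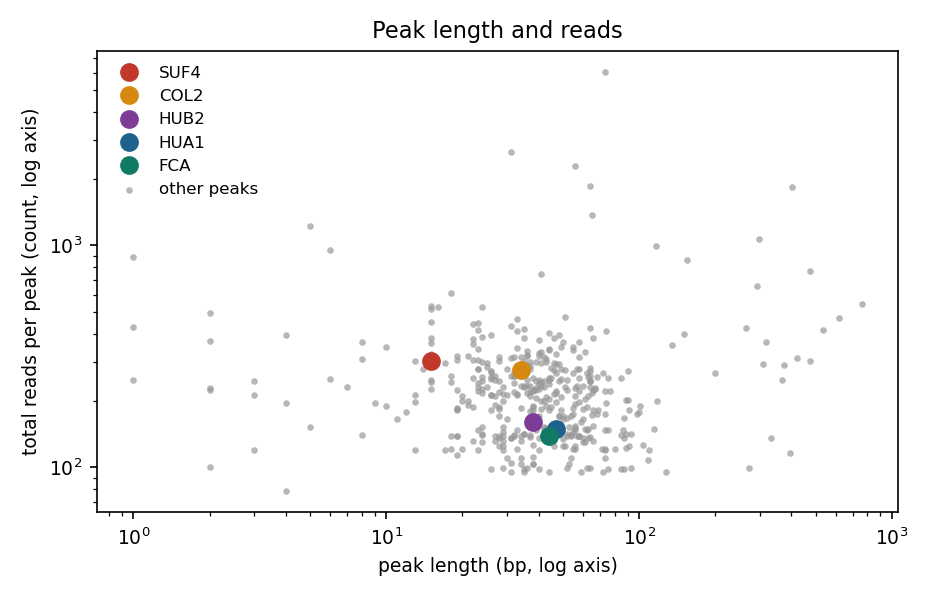
Peak length in bp (log axis) against total reads per peak (count, log axis) for the 5 peaks (coloured) and 431 other peaks (grey). 3 other peaks of length 0 cannot be placed on the log axis. SUF4 sits at 15 bp and 301 reads, while HUB2, HUA1 and FCA lie close together between 38 and 47 bp.

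Strand counts were not used to choose the genes and differed among them. The forward share was 48.8% in SUF4 (exact Clopper-Pearson 95% interval 43.1 to 54.6), which is an even split within counting error. In COL2 it was 35.8% (30.1 to 41.8), in HUB2 41.0% (33.3 to 49.0) and in HUA1 38.3% (30.4 to 46.6), so reverse reads were the larger part in all 3. FCA went the other way with 72.5% forward reads (64.2 to 79.7), or 2.63 forward reads for each reverse read. Its interval does not overlap that of any of the other 4. These intervals cover counting error only, and reads without molecular identifiers are not independent molecules.

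An interval that leaves out 50% was common in the list. It was found in 4 of the 5 peaks described and in 56.3% of all peaks. Intervals below 50% were seen in 3 of the 5 and in 33% of all peaks, and intervals above 50% in 1 of the 5 and in 23.2% of all peaks. The forward share had a median of 48.7% over all peaks, where quartiles stood at 40.1% and 56.5% and the extremes at 25.5% and 74.7%. FCA lay near the top of that range, with 5 peaks above it. Whether peaks with a more uneven split were left out of the list is not given, so these extremes hold for listed peaks only. By the deposited strand imbalance, the difference of the strands over their sum, FCA (0.449) ranked 15 of 439 and SUF4 (0.0233) ranked 401. COL2 (0.285), HUA1 (0.235) and HUB2 (0.180) ranked 104, 138 and 198, against a median imbalance of 0.165.

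**Figure D3:**
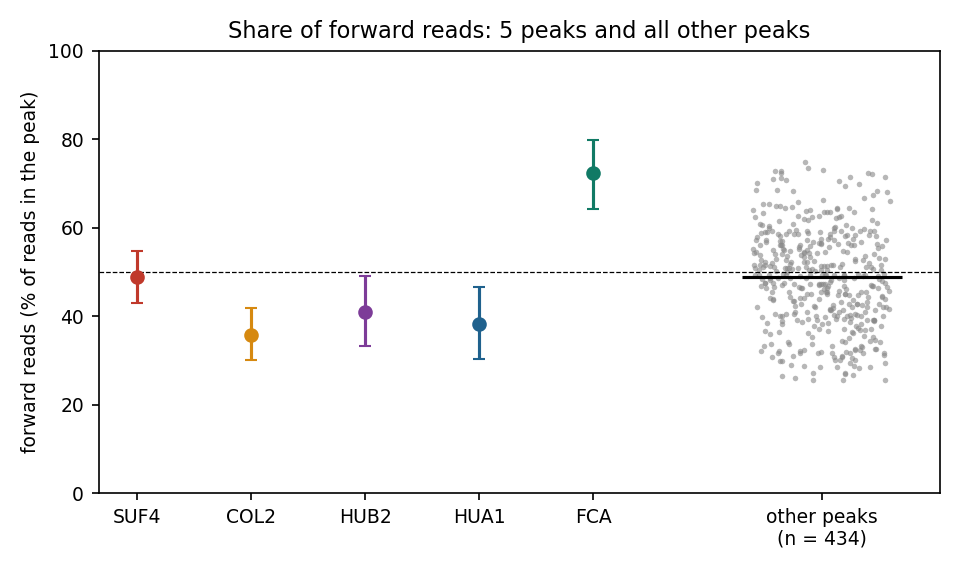
Forward reads as a percent of reads in the peak for the 5 peaks (points, with exact 95% binomial intervals) and for the 434 other peaks (grey points, median as a black line). The dashed line marks 50%. FCA stands at 72.5%, COL2, HUB2 and HUA1 lie below the line, and the SUF4 interval spans it.

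The authors' false discovery rate (FDR) put the genes in another order than reads did. HUA1 had the lowest FDR at 0.948%, followed by SUF4 at 1.03%, FCA at 1.22%, COL2 at 4.85% and HUB2 at 4.99%. HUA1 was the 1 gene of the 5 under 1%, where 51.5% of all peaks lay. Under 2% there were 3 of the 5 and 73.8% of all peaks. HUA1 lay just inside the 1% limit, since its 0.948% was the highest value under 1% in the list. The lowest value at or over 1% was 1.02%, just below that of SUF4. HUB2 lay at the other edge, for its 4.99% was the highest FDR in the list and was shared by 16 peaks. The deposited p-value was 0 for all 5 and for 85% of all peaks, so it did not rank them.

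COL2 carried the second-highest read count of the 5 and nearly the poorest FDR, so FDR was set beside each count of a peak. Many peaks share an FDR exactly, and the commonest total among the other peaks of the same FDR was compared with the counts of each member. HUA1 shared its FDR with 8 other peaks, of which 4 had 149 reads in all, the HUA1 total. FCA shared its FDR with 7 others, and 6 of these had 138 reads, the FCA total.

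For the other 3 genes the shared number was a count on 1 strand. SUF4 shared its FDR with 11 other peaks, of which 6 had 147 reads in all, and 147 is the number of forward reads of SUF4. COL2 shared its FDR with 16 others, of which 6 had 98 reads in all, the COL2 forward count. HUB2 shared its FDR with 15 others, of which 6 had 95 reads in all, the HUB2 reverse count. All 6 other peaks with a total of 147 reads had the FDR of SUF4, all 6 with 98 reads that of COL2, and all 6 with 95 reads that of HUB2. The matching strand was the smaller one in SUF4 and COL2 and the larger one in HUB2.

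Both kinds of match were found across the list. In 325 peaks the other peaks of the same FDR had a single commonest total, held by at least 2 of them. It equalled the peak's own total in 50.8% of these 325 and a count on 1 strand in 26.2%. Among the 85 peaks with a match on 1 strand, it was the larger strand in 63 and the smaller in 22. The median total was 140 reads in peaks matched by their total and 223 reads in those matched by 1 strand. In 75 of the 325 it equalled none of the peak's counts. How the FDR was computed is stated in none of the sources used here, and the match was looked for after the values were seen.

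Peaks with a like total show how far the FDR of each gene lay from its neighbours in depth. Of 14 other peaks within 5 reads of the SUF4 total, 13 had a lower FDR than SUF4, and their median was 0.0390% against 1.03% for SUF4. Of 13 peaks within 5 reads of COL2, all 13 had a lower FDR, with a median of 0.195% against 4.85% for COL2. HUB2 had 5 such peaks, with a median of 0.647% and a highest value of 4.85%, against 4.99% for HUB2. All 5 were lower, but 4.99% was the highest FDR of the list, so none could have been higher. HUA1, at 0.948%, had 24 peaks of like total with a median of 1.06%, none of them lower. FCA, at 1.22%, had 41 with a median of 1.24%, of which 9 were lower. By reads SUF4 ranked 92, COL2 121 and HUB2 302 of 439, but by FDR they ranked 229, 407 and 424. HUA1 ranked 313 by reads and 218 by FDR, and FCA 351 and 266.

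**Figure D4:**
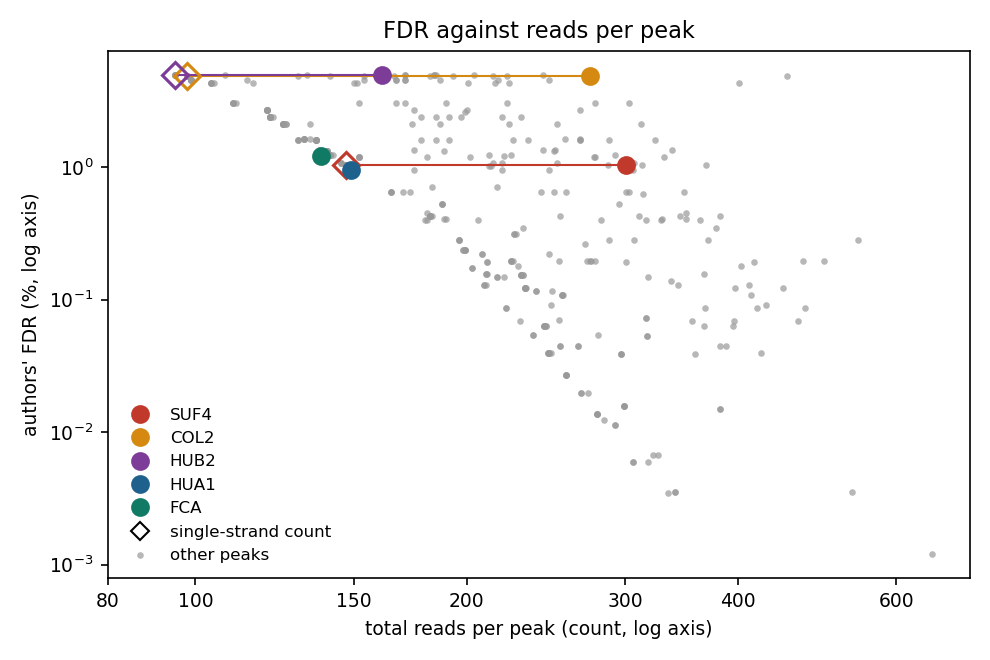
The authors' FDR (percent, log axis) against total reads per peak (count, log axis) for the 5 peaks (filled circles) and other peaks (grey), with 413 peaks drawn and 26 outside the axes (FDR under 0.001% or over 700 reads). Open diamonds joined by a line mark the strand count of SUF4 (147), COL2 (98) and HUB2 (95) that equals the commonest total at that FDR. HUA1 and FCA lie on the lower left edge of the cloud, and the diamonds fall on the same edge.

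All 5 genes were longer than the median nuclear protein-coding gene of 2078 bp. The genes under any peak were longer too, with a median of 2767 bp, and 197 of these 289 genes (68.2%) exceeded 2078 bp. FCA measured 8385 bp and was longer than 99.1% of all nuclear protein-coding genes and 96.9% of the genes under a peak. HUB2 measured 5697 bp (longer than 96.2% of all genes), HUA1 4065 bp (88.6%) and SUF4 3524 bp (83.1%). COL2, at 2399 bp, was longer than 59.9% of all genes but shorter than the median gene under a peak. Lengths are those of a RefSeq gene table on TAIR10.1. A longer gene offers more positions for a peak to fall on, and the part of length in these overlaps was not tested.

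**Figure D5:**
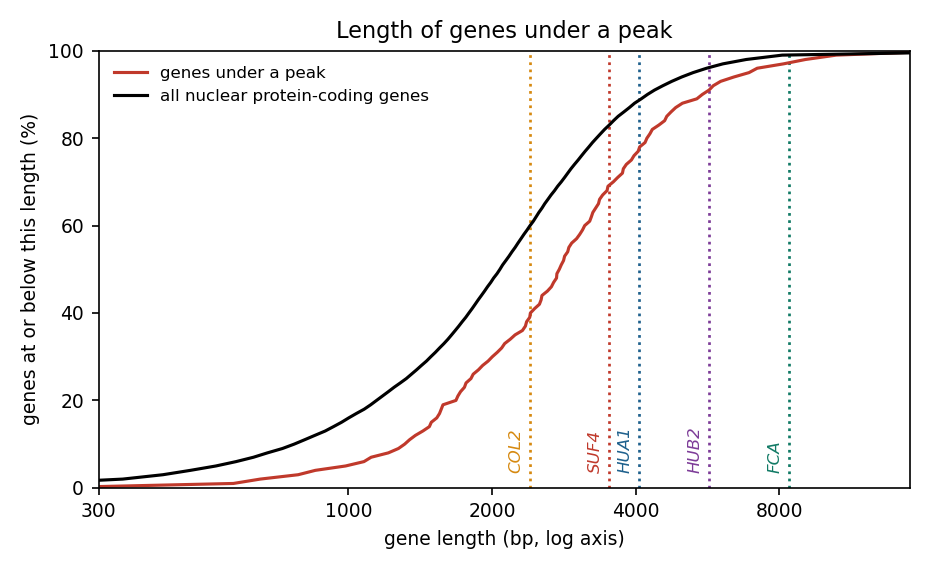
Share of genes (percent) at or below a given length (bp, log axis) for the 289 nuclear protein-coding genes under a peak (red) and for all 27444 (black). Dotted lines mark the 5 genes. The red curve lies to the right of the black one, with medians of 2767 and 2078 bp, and all 5 lines lie to the right of the black median.

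The annotation columns of the list say little about where in each gene the peak lay. They name no exon, intron, untranslated region or gene strand. In the overlap column COL2, HUB2 and HUA1 are each written 2 times before the words "ChIP peak" and once after them, the pattern of 211 of the 291 peaks on protein-coding genes. SUF4 is written 3 times before and 2 times after, and FCA 3 times before and 3 times after. What the repeats stand for is not given. COL2 also carries a hand-written note of its own locus. Such notes stand beside 9 peaks, and in 4 of them, COL2 included, the note names a gene that the overlap column names already.

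A listed neighbour other than the gene itself lay within 3000 bp for 1 of the 5 peaks. The share of all peaks with such a neighbour is not given here. The SUF4 peak has AT1G30960 as its 5' gene at 2474 bp and SUF4 itself as its 3' gene, and AT1G30960 is also next to SUF4 in the gene order of the RefSeq table. For COL2 and HUA1 the list gives no 5' gene and the COBRA-like gene COBL2 as the 3' gene, 11239586 and 7699337 bp away. HUB2 is listed between AT1G40123 (5394205 bp) and AT1G61795 (2211659 bp). FCA has no 5' gene and the inositol transporter gene INT4 at 79484 bp. Neighbours over 20000 bp away were thus listed for 4 of the 5 peaks, as for 72.0% of all peaks. No 5' gene was listed for 3 of the 5 peaks and for 34.4% of all peaks. In the gene order of the table COL2 lies between AT3G02370 and AT3G02390, HUB2 between AT1G55240 and AT1G55260, HUA1 between FLA14 and AT3G12685, and FCA between AT4G16270 and SPH1. None of the genes next to the 5 was named under a peak, where 1.05% of all nuclear protein-coding genes were named. At that share an empty count among so few genes does not set the 5 apart.

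No other peak of the list lay closer than 59.7 kb to any of the 5. The nearest other peak was 218 kb from that on SUF4, 242 kb from that on COL2, 155 kb from that on HUA1, 76.3 kb from that on HUB2 and 59.7 kb from that on FCA. The median distance to the nearest peak over the whole list was 81.5 kb, so 3 of the 5 lay farther from another peak than the median. The nearest peak to FCA lay on AT4G16150 with 147 reads, and the nearest to HUB2 on AT1G55400 with 138 reads. For SUF4 it lay on the glycerol-3-phosphate permease gene G3Pp3 (139 reads), and for HUA1 on AT3G13061 and ECT5 (189 reads). The nearest to COL2 named no gene (349 reads).

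Other genes of the same pathways were looked up in 7 lists with 58 genes, the 5 described included. Where a list below has 1 gene named, it is the gene chosen for its peak, so the count is not a result. Of all nuclear protein-coding genes, 1.05% were named. The overlap and note columns named 1 of 5 genes of the FRIGIDA complex, SUF4, and neither FRI nor FES1. They named 1 of 7 autonomous pathway genes, FCA, but not its partner FY nor FPA, FLD, FVE, LD or FLK. Among genes of H2B monoubiquitination and the Paf1 complex 1 of 9 was named, HUB2, and its partner HUB1 was not. Among photoperiod and CONSTANS-like genes 1 of 13 was named, COL2, while its close relatives CO and COL1 were not. Among genes that act on or encode AGAMOUS 1 of 6 was named, HUA1, but not AG, HUA2, HEN4, HEN2 or PEP.

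The lists of vernalization (0 of 4) and of repressors and integrators (0 of 14) had no gene named. Together they hold FLC, FT, SOC1 and LFY. Their exact Clopper-Pearson 95% intervals reached up to 60.2% and 23.2%. Without the 5 genes chosen for their peaks, 0 of 53 genes were named. The exact Clopper-Pearson 95% interval reached up to 6.72%, against 1.05% of all nuclear protein-coding genes. An empty count is thus no sign that their share lay below that of all genes. Whether the overlap column takes in promoters is not given. In gene order 1 of the 53, HUA2, which acts with HUA1 on AGAMOUS RNA, lies next to a gene under a peak, as do 2.07% of all genes that are not themselves under one. That gene, AT5G23140, had a peak on chromosome 5 at 7784627 to 7784681 with 110 reads, 47 forward and 63 reverse, and an FDR of 3.05%. This adjacency was looked for after the values were seen.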

How the data were processed

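One peak list of the whole series was used. Its genome build is TAIR 9, per the submitters' processing notes. Not given in the sources used here are the aligner, the peak caller and the use of the wild-type library. The authors' reads per peak are a count, per the file headers, split into forward and reverse reads that added up to it in each of the 439 peaks. The authors' FDR is a percent. The strand imbalance, as deposited, is a fraction that matched the strand counts within 1e-06 in 438 peaks. The deposited p-value comes with no word on what it tests.

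Annotation text over several lines was joined (177 lines). Each name, locus or symbol, was matched within the peak's chromosome to a RefSeq gene table (assembly TAIR10.1), used for names, gene order and length. Its coordinates were not compared with those of peaks. For 4 names that fit several loci, the choice was the locus nearest in number to those of neighbouring peaks. No sequences were used here.

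The genes and lists were chosen with earlier results of these data known, so no set test was run. Named were the 5 genes, their listed neighbours and list genes at peaks; the genes next in order and those under the nearest peaks, and the list genes named as having no peak, were added afterwards. With 1 library per genotype there is no test between groups. Intervals are exact Clopper-Pearson 95% binomial intervals and cover counting error. The interval and the FDR comparison were tried on simulated data, where each FDR was set by 1 count of its peak alone. That setting does not cover the 75 of 325 peaks whose counts all differed from the commonest total. Alternatives were thresholds on FDR and p-value, neighbours within 1000 or 3000 bp, peaks on protein-coding genes and reads per base. Tools were SciPy 1.17.1, NumPy 2.4.6, Matplotlib 3.10.9 and Python 3.11.15.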

Additional observations from a re-analysis of the deposited data

How the results depend on the processing

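The count of list genes named under a peak, 5 of 58, holds only the 5 genes chosen for their peaks, so it tests nothing. It was 5 with neighbours within 1000 or 3000 bp added. With p-values at or under 0.05, which 94.5% of all peaks met, it was also 5. It came to 1 with FDR under 1% (HUA1), where 51.5% of all peaks lay. In an alternative chosen after seeing the data, it came to 3 with FDR under 2% (HUA1, SUF4 and FCA), where 73.8% of all peaks lay. Fewer peaks enter under both limits. The median reads of the 5 peaks was 161, and also 161 with the p-value limit. Under the 1% FDR limit the value was 149, the count of HUA1 alone. Under the 2% limit it was 149 as the median of 3 peaks. The share of peaks with fewer reads moved beyond its 95% binomial interval in 3 of 10 recalculations, all on reads per base: to 90.7% for SUF4 (78.6% by reads), 39.4% for HUB2 (31.2%) and 26.0% for FCA (18.7%). Reads per base rest on the listed peak length, which need not be the window of the counts. Forward shares had no alternative. No paired analysis was possible because there was only 1 library per genotype. Depth per library is unknown.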
